A study of Mus musculus with 6 samples.

Results

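The 92 genes described here encode the nuclear-encoded proteins of mitochondrial oxidative phosphorylation in mouse brain. They were chosen by name alone: names that start with Nduf, Uqcr, Atp5 or Sdh followed by a, b, c or d, and names of Cox4 to Cox8 followed by a letter, with at least 60 counts summed over the 6 libraries. Of 94 names that match, 92 reached that sum, out of 56826 rows in the table, of which 23473 carry a gene symbol. They comprise 36 subunits of complex I, 4 of complex II, 8 of complex III, 17 of complex IV, 15 of complex V, 11 assembly factors or factors named for a complex, and Atp5s, a factor named after ATP synthase that is counted apart. Just inside the minimum lay Cox8b with 172 counts, and just outside it Cox7b2 with 45 and Cox8c with 2.

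Oxidative phosphorylation couples the oxidation of NADH and succinate to ATP synthesis in the inner mitochondrial membrane. Complexes I and II feed electrons to ubiquinone, complex III passes them to cytochrome c, complex IV hands them to oxygen, and complex V uses the resulting proton gradient to make ATP. Neurons depend on it for ion pumping at synapses, and interruption of blood flow deprives it of oxygen. Most subunits are encoded in the nucleus, and the subunits encoded by mitochondrial DNA were not analysed here.

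In the study, RNA from mouse brain depleted of ribosomal RNA was sequenced in 2 groups of 3 libraries. The ischemia/reperfusion group had the right middle cerebral artery closed with a filament for 1 h, then 6 h of reperfusion, as a model of ischemic stroke. The sham group had the operation with no filament inserted. All animals were male C57BL/6 mice aged 8 to 9 weeks under chloral hydrate, and no genetic change is named; the labels give the tissue as brain, with no hemisphere or region.

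Library totals were 45.4 to 48.6 in ischemia/reperfusion and 48.1 to 49.7 in sham, in units of 1e6 counts. Since no label assigns each library to an animal of its own, the p-values measure the spread between libraries, part of which may be technical. Neuron markers were present, with summed levels of 4418 to 5133 counts per 1e6 (CPM) in ischemia/reperfusion and 4786 to 4868 CPM in sham. Summed markers of other cells varied between libraries: summed oligodendrocyte markers spanned 4186 to 10756 CPM in ischemia/reperfusion and 4910 to 6179 CPM in sham, and summed choroid plexus markers 19.97 to 1208 CPM in ischemia/reperfusion and 550.4 to 765.4 CPM in sham. In such bulk tissue, fewer cells of a type and less RNA per cell cannot be told apart.

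Transcripts of the respiratory chain and ATP synthase were lower by small amounts across all 5 complexes after ischemia/reperfusion, and no single gene passed the test. The fitted log2 fold change was below 0 for 89 of 92 genes, with a median of -0.22, a level 14.0% lower, and a range of -0.35 for Cox6a2 to 0.08 for Cox4i2. The median over all gene-symbol rows tested was -0.04, and 55.8% of those rows had a fold change below 0. Summed over the 92 genes, the level was 8262 ± 406.5 CPM in ischemia/reperfusion and 9219 ± 339.7 CPM in sham (SD, n = 3 each). As a share of all counts, the genes took 0.800%, 0.873% and 0.806% in ischemia/reperfusion, against 0.912%, 0.960% and 0.894% in sham, so the groups did not overlap.

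At an adjusted p under 0.05, 0 of the 92 genes were called by edgeR's quasi-likelihood test with Benjamini-Hochberg adjustment over 40170 rows, where lower calls made up 0.0% and higher calls 0.00249% of all rows. DESeq2 also called 0 of them, although it called 0.707% of its rows lower and 1.1% higher, and limma-voom called 0. At an unadjusted p under 0.05 in edgeR, 40 of the genes were lower and 0 higher, 43.5% of the genes, against 8.71% of gene-symbol rows and 6.9% of all rows that were lower and 6.39% of gene-symbol rows that were higher. All 3 ischemia/reperfusion values lay below all 3 sham values, in CPM, for 43 of the genes, or 46.7%, against 8.79% of gene-symbol rows and 6.99% of all rows. No gene had all 3 ischemia/reperfusion values above the sham values, against 10.3% of gene-symbol rows.

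The size of the difference depended on what the genes were compared with. Gene-symbol rows under 1000 bases had a median log2 fold change of -0.12 (n = 1466), those over 4000 bases 0.01 (n = 4739), and those with a mean of at least 64 CPM -0.09 (n = 3025). The median length of the 92 rows was 733 bases, and 59 were under 1000 bases. With a smooth trend of each library on row length removed, the median of the 92 was -0.12, 82 had values below 0, against 50.6% of gene-symbol rows, and 6 were lower at an unadjusted p under 0.05, against 5.34% of gene-symbol rows. With trends on row length and then on mean abundance removed, the median was -0.08, 78 of 92 had values below 0, against 50.4% of gene-symbol rows, and 2 were lower at that p, Sdhc (-0.20) and Ndufa11 (-0.22), against 4.72% of gene-symbol rows; 1, Cox6a1 (0.23), was higher, against 6.64%. Among the 92 genes themselves, the 59 shorter ones and the 33 of at least 1000 bases each had a median of -0.22 before any trend was removed.

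**Figure D1:**
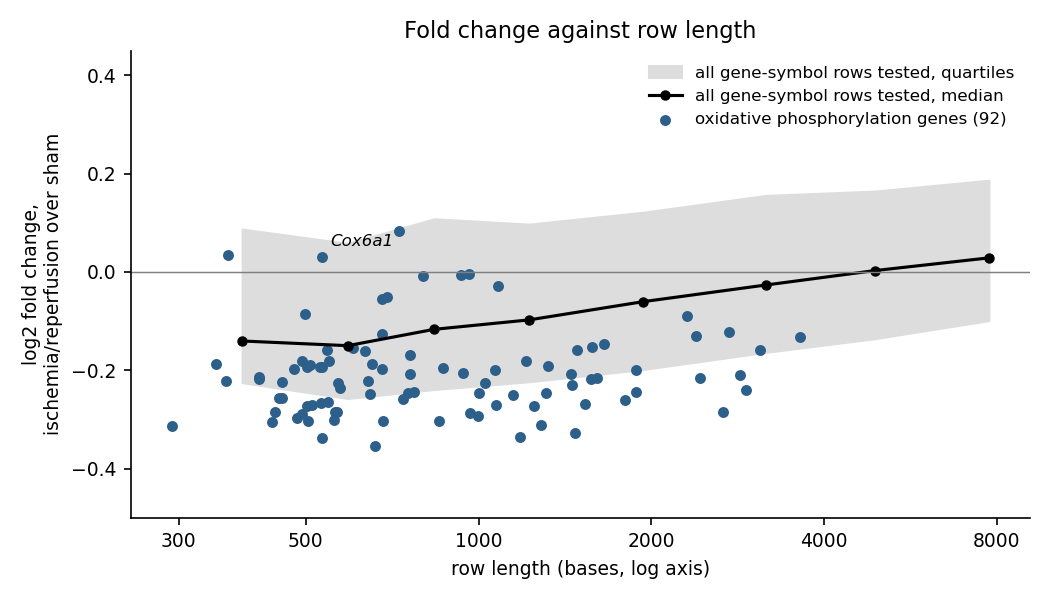
Log2 fold change of ischemia/reperfusion over sham against row length in bases (log axis), for the 92 oxidative phosphorylation genes (points) and for all gene-symbol rows tested (line, median per length class; band, quartiles). The line climbs from -0.14 in rows of 300 to 500 bases to 0.03 in rows of 6000 to 10000 bases, and most of the 92 points lie below it.

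The libraries did not contribute equally. The median difference from the sham mean over the 92 genes, on the log2 scale of TMM-normalised CPM, was -0.28, -0.12 and -0.25 in ischemia/reperfusion replicates 1 to 3, against -0.03, 0.07 and -0.05 in sham replicates 1 to 3. In those ischemia/reperfusion libraries 89, 83 and 87 of the 92 genes lay below their sham mean. Ischemia/reperfusion replicate 2 was nearest to sham and sham replicate 2 the highest of its group. The number of genes lower at an unadjusted p under 0.05 was 60 when ischemia/reperfusion replicate 2 was left out and 15 when sham replicate 2 was.

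**Figure D2:**
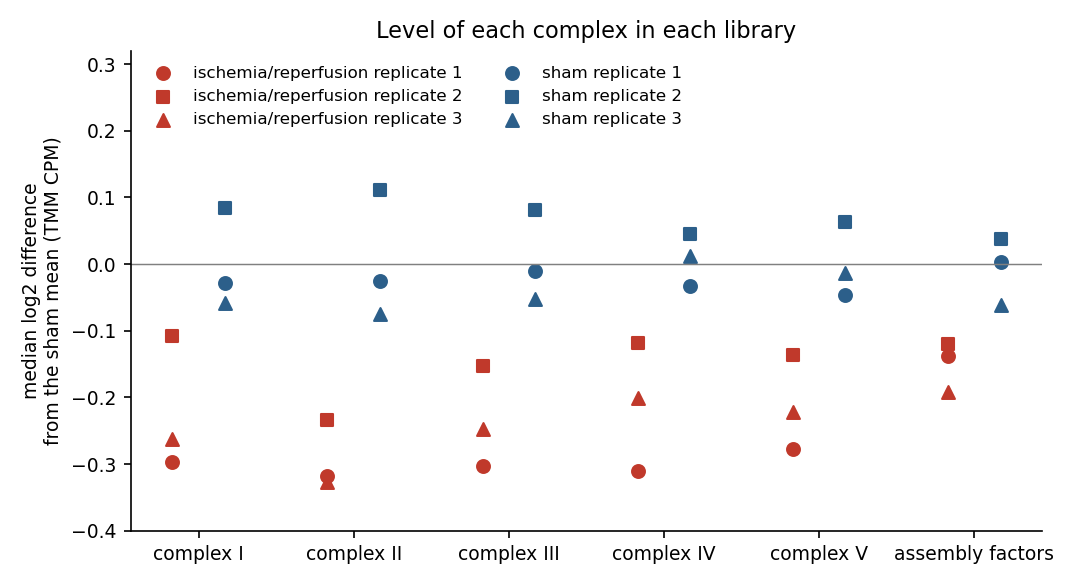
Median log2 difference from the sham mean (TMM-normalised CPM) over the genes of each complex and over the assembly factors, 1 point per library, ischemia/reperfusion left of sham and 1 marker shape per replicate number. All 3 ischemia/reperfusion points lie below the 3 sham points in each set, with replicate 2 the highest ischemia/reperfusion point.

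Promoter sequences were looked up for the genes, since respiratory genes are known for binding sites of the factors NRF1, GABP (an ETS-family factor) and YY1 near their start sites. RefSeq (GRCm38.p6) gave a start for 77 of the 92 genes, and the window ran from 250 bases before to 50 bases after it. The NRF1 letters, GCGCA followed by any base and GCGC, were searched on both strands, like the others, and were found in 18 of 77 windows, or 23.4%, against 9.00% of 12641 windows of gene-symbol rows tested. The ETS letters CCGGAAG were also in 23.4% of the windows, against 15.8%, and the YY1 letters AAGATGGC in 13.0%, against 4.18%. The SP1 letters GGGCGG were in 45.5%, against 61.2%, the CRE letters TGACGTCA in 5.19%, against 2.97%, and TATAAA in 7.79%, against 7.88%. A match describes the letters and does not show a bound site.

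Promoters of 4 genes were compared as examples, and these are not the 4 genes with the most extreme fold changes. Ndufb4 and Atp5k had log2 fold changes of -0.26 and -0.31. The 2 complex IV genes beside them were the broadly expressed Cox6a1 (0.03, SE 0.09) and the muscle-type Cox7a1 (0.04, SE 0.24). With so wide an SE, Cox7a1 cannot be told apart from Ndufb4 or Atp5k. The promoters of these 4 genes are printed. Each is the 250 bases before the start, 5′ to 3′ on the strand of the gene, at chr16:37654369-37654618 (minus strand), chr5:108434400-108434649 (minus), chr5:115348959-115349208 (minus) and chr7:30183921-30184170 (plus), with matches to the NRF1, ETS and SP1 letters on either strand in capitals.
Ndufb4: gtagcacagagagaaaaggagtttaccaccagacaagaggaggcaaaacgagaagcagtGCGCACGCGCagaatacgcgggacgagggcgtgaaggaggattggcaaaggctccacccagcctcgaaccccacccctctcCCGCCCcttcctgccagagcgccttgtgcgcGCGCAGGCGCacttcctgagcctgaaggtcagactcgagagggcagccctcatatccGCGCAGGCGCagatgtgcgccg
Atp5k: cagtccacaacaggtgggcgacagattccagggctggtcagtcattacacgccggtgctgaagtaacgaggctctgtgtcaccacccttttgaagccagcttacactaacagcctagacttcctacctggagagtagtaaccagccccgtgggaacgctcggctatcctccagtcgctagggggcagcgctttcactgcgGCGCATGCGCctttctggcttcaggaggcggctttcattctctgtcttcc
Cox6a1: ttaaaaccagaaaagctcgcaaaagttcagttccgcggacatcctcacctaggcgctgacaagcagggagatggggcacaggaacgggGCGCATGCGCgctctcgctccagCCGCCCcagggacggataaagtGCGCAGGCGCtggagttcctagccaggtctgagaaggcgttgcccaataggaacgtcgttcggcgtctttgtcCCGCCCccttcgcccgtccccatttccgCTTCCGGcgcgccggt
Cox7a1: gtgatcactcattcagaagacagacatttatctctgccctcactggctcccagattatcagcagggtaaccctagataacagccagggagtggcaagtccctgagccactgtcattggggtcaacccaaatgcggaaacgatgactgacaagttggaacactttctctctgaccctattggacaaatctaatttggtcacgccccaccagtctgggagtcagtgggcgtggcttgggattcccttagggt
In these 250 bases Ndufb4 holds 3 NRF1 matches and 1 SP1 match, and Atp5k 1 NRF1 match. Cox6a1 holds 2 NRF1 matches, 1 ETS match and 2 SP1 matches, and Cox7a1 none of these letters and 4 CpG. The full window of Atp5k, with the 50 bases after the start, also holds 1 ETS match, which is not wholly before the start. None of the printed matches overlapped another. Genes farther from 0 than Ndufb4 included Ndufb6 (-0.34) and Ndufv2 (-0.33), with 0 NRF1 matches in their full windows, and Sdhd (-0.31), with 1. The 4 examples therefore do not show how matches relate to fold change. Over all 77, the median log2 fold change was -0.24 for the 18 genes with an NRF1 match and -0.22 for those without. Many of these genes share a start region with a gene of the opposite strand: 26 of 92, or 28.3%, had such a neighbour starting within 1000 bases, against 12.1% of gene-symbol rows. Of 23 such neighbours tested, 18 had a log2 fold change below 0, with a median of -0.09, where 55.8% of gene-symbol rows were below 0.

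Complex I, NADH dehydrogenase, is the largest set. All 36 of its genes had a log2 fold change below 0, with a median of -0.22 and a range of -0.34 to -0.01. An unadjusted p under 0.05 was reached by 15 of them, or 41.7%, where 8.71% of gene-symbol rows were lower. With the row length trend removed 4 remained lower at that p, against 5.34% of gene-symbol rows. With both trends removed 1 did, against 4.72%. Ndufb6, an accessory subunit of the membrane arm, had the smallest p of the complex (chr4:40270663-40279368, minus strand, mm10, as the table gives it). It measured 76.7, 86.2 and 84.0 RPKM in ischemia/reperfusion, against 96.6, 101 and 103 RPKM in sham, and its groups did not overlap. Its fitted log2 fold change was -0.34 ± 0.10 (SE), and its adjusted p 0.184 in edgeR. RPKM, reads per kilobase of row length per 1e6 counts, is scaled to library totals. A ratio of RPKM therefore differs from the fitted, TMM-scaled fold change. TMM factors were 1.004 to 1.028 in ischemia/reperfusion and 0.969 to 0.990 in sham. Without them the median log2 fold change was -0.16 over the 92 genes, with 83 below 0, and 0.02 over gene-symbol rows. Fold changes in brackets hereafter are log2 values with their SE.

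The core subunits of complex I form the path of electrons from NADH to ubiquinone. Ndufv2, an iron-sulfur protein of the module that oxidises NADH, had the value farthest from 0 among them, with 51.6, 51.0 and 46.4 RPKM in ischemia/reperfusion, against 60.6, 66.5 and 52.8 RPKM in sham (-0.33 ± 0.11). Its partner Ndufv1, which binds the flavin, had 91.5, 103 and 85.5 RPKM in ischemia/reperfusion, against 105, 111 and 97.5 RPKM in sham (-0.22 ± 0.11). The 3 values of Ndufv2 in ischemia/reperfusion lay below the 3 in sham, and those of Ndufv1 overlapped. Ndufs1, the largest iron-sulfur subunit, had a log2 fold change of -0.24 ± 0.11. Ndufs7, an iron-sulfur subunit near the ubiquinone site, had -0.21 ± 0.10, and the iron-sulfur subunit Ndufs8 and the structural subunit Ndufs3 had -0.22 ± 0.11 and -0.20 ± 0.10. The core values given here were thus between -0.33 and -0.20, inside the range of the accessory subunits.

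Among the accessory subunits, Ndufc2 had 90.0, 88.5 and 84.7 RPKM in ischemia/reperfusion, against 101, 110.1 and 101 RPKM in sham, and Ndufa7 85.7, 89.7 and 89.8 RPKM in ischemia/reperfusion, against 103, 105 and 105 RPKM in sham. Both had groups that did not overlap, with log2 fold changes of -0.30 ± 0.09 and -0.30 ± 0.09 and edgeR adjusted p-values of 0.199 and 0.199. Ndufb9 had the highest level of complex I, with 183, 202 and 202 RPKM in ischemia/reperfusion, against 215, 219.9 and 207 RPKM in sham (-0.19 ± 0.09). Ndufab1, the mitochondrial acyl carrier protein that also serves fatty acid synthesis, was nearest to 0 in the complex, with 27.6, 30.6 and 28.2 RPKM in ischemia/reperfusion, against 27.0, 27.2 and 29.5 RPKM in sham (-0.01 ± 0.11), and its groups overlapped.

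Complex II, succinate dehydrogenase, belongs to both the respiratory chain and the tricarboxylic acid cycle, and all of its subunits are encoded in the nucleus. Its 4 genes had the lowest median log2 fold change of the sets, -0.29, and -0.15 with the length and abundance trends removed. Sdhc (chr1:171129157-171150603, minus strand, mm10), a membrane anchor that binds heme, had the smallest p of all 92 genes, with 46.7, 47.3 and 47.4 RPKM in ischemia/reperfusion, against 56.5, 57.3 and 57.8 RPKM in sham. Its replicates were tightly grouped in both conditions, with a log2 fold change of -0.33 ± 0.09 (SE), an edgeR adjusted p of 0.165 and a DESeq2 adjusted p of 0.0661. The other membrane anchor, Sdhd, had 52.4, 53.2 and 53.0 RPKM in ischemia/reperfusion, against 60.2, 68.8 and 60.1 RPKM in sham (-0.31 ± 0.10), and these groups did not overlap either.

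The catalytic pair of complex II was less far from sham than the anchors in fold change, a difference that was not tested. Sdhb, the iron-sulfur subunit, had 68.3, 72.2 and 68.1 RPKM in ischemia/reperfusion, against 79.1, 85.4 and 77.4 RPKM in sham (-0.27 ± 0.09). Sdha, the flavoprotein that oxidises succinate, had 96.0, 102 and 87.4 RPKM in ischemia/reperfusion, against 108, 113 and 96.1 RPKM in sham (-0.21 ± 0.10). The groups were apart for Sdhb and overlapped for Sdha, where sham replicate 3 lay within the ischemia/reperfusion range.

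Complex III, the cytochrome bc1 complex, had a median log2 fold change of -0.24 over 8 genes, all below 0. An unadjusted p under 0.05 was reached by 5, where 8.71% of gene-symbol rows were lower. With the row length trend removed it was reached by 0, against 5.34% of gene-symbol rows. The small subunit Uqcr11 had 129, 147 and 161 RPKM in ischemia/reperfusion, against 174, 160.1 and 186 RPKM in sham (-0.31 ± 0.11), with 1 ischemia/reperfusion library reaching into the sham range. Uqcr10, the most abundant of the complex, had 190.5, 224 and 214 RPKM in ischemia/reperfusion, against 236, 255 and 245 RPKM in sham (-0.29 ± 0.10) and no overlap. Uqcrfs1, the Rieske iron-sulfur protein that takes electrons from ubiquinol, had 92.8, 95.3 and 96.3 RPKM in ischemia/reperfusion, against 106, 113 and 105 RPKM in sham (-0.25 ± 0.09) and no overlap. Nearest to 0 were Uqcrc1, a core protein (-0.15 ± 0.09), and Uqcrq, a small subunit (-0.09 ± 0.13), both with overlapping groups. The name rule leaves out cytochrome c and cytochrome c1: Cycs, the electron carrier to complex IV, had a log2 fold change of -0.22 ± 0.09 and Cyc1 -0.13 ± 0.09 (SE).

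Complex IV, cytochrome c oxidase, held the most mixed values: 14 of its 17 genes lay below 0, with a median log2 fold change of -0.22. Of the 17, 8 were lower at an unadjusted p under 0.05, where 8.71% of gene-symbol rows were. With the row length trend removed 0 were, against 5.34% of gene-symbol rows. Cox6b1, which faces the intermembrane space, had 190.3, 231 and 235 RPKM in ischemia/reperfusion, against 250.005, 259.9 and 269.8 RPKM in sham (-0.30 ± 0.10). Cox6c had 211, 239 and 218 RPKM in ischemia/reperfusion, against 257, 269 and 251 RPKM in sham (-0.27 ± 0.09), and Cox7c 273, 287 and 299.6 RPKM in ischemia/reperfusion, against 308, 344 and 335 RPKM in sham (-0.26 ± 0.09). All 3 genes had groups that did not overlap, and their edgeR adjusted p-values were 0.223, 0.227 and 0.24. Ndufa4, first assigned to complex I and now placed in complex IV, had 196, 239.7 and 201 RPKM in ischemia/reperfusion, against 246, 266 and 238 RPKM in sham (-0.29 ± 0.11), with overlapping groups.

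Several complex IV subunits exist in a broadly expressed form and a form known from another tissue, and the forms differed widely in level. Cox4i1, the general form of subunit IV, had 547, 585 and 553 RPKM in ischemia/reperfusion, against 614, 641 and 603 RPKM in sham (-0.20 ± 0.09), with no overlap. Cox4i2, known as the lung form and as induced by low oxygen, had 1.78, 0.984 and 1.06 RPKM in ischemia/reperfusion, against 1.16, 0.829 and 1.49 RPKM in sham (0.08 ± 0.33). Cox4i2 gave 0.228% of the pair's RPKM in ischemia/reperfusion and 0.188% in sham, with overlapping groups. Ndufa4l2, known as a target of hypoxia-inducible factor, gave 0.659% of its pair with Ndufa4 in ischemia/reperfusion and 0.541% in sham. Its values were 1.05, 1.35 and 1.80 RPKM in ischemia/reperfusion, against 1.32, 1.19 and 1.55 RPKM in sham (-0.01 ± 0.26). At this depth no difference was detectable for either of these low-oxygen forms. The Ndufa4l2 row also overlaps Shmt2 on the other strand, and without a stated strand setting their reads cannot be told apart.

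In the Cox6a pair the 2 forms lay on opposite sides of 0. Cox6a1 (chr5:115345654-115348955, minus strand, mm10), the general form, was the 1 abundant subunit of complex IV above 0, with 294, 323 and 345 RPKM in ischemia/reperfusion, against 295, 291 and 319.7 RPKM in sham (0.03 ± 0.09). Its groups overlapped, and without ischemia/reperfusion replicate 3 the value was -0.02. Cox6a2 (chr7:128205435-128206366, minus strand, mm10), the heart and muscle form, which is also known from parvalbumin interneurons, had 6.94, 6.45 and 6.65 RPKM in ischemia/reperfusion, against 8.80, 7.50 and 8.32 RPKM in sham (-0.35 ± 0.15), with no overlap and an edgeR adjusted p of 0.293. Cox6a2 gave 2.05% ± 0.222 of the pair's RPKM in ischemia/reperfusion and 2.65% ± 0.216 in sham (SD, n = 3 each). The highest ischemia/reperfusion share, 2.30%, was below the lowest sham share, 2.51%. With 3 against 3 libraries a two-sided exact permutation test cannot give a p below 0.1. Pvalb, which marks those interneurons, had 36.6, 50.1 and 45.6 CPM in ischemia/reperfusion, against 63.8, 58.4 and 47.9 CPM in sham, while 3 of the 6 markers of these cells were below 0 and their median was -0.03; their part in the result was not tested. The Cox6a2 row overlaps Itgad on the other strand, and without a stated strand setting their reads cannot be told apart.

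The shares of the other complex IV pairs overlapped between the groups. Cox7a1, the muscle form of subunit VIIa, had 3.49, 3.26 and 4.93 RPKM in ischemia/reperfusion, against 3.79, 3.35 and 3.80 RPKM in sham (0.04 ± 0.24), beside Cox7a2, the general form, with 84.0, 93.4 and 88.3 RPKM in ischemia/reperfusion, against 95.8, 105 and 103 RPKM in sham (-0.25 ± 0.09). Cox7a1 gave 4.22% of their summed RPKM in ischemia/reperfusion and 3.49% in sham. Cox8a, the general form of subunit VIII, was the most abundant of the 92 genes, with 556, 606 and 635 RPKM in ischemia/reperfusion, against 609, 642 and 677 RPKM in sham (-0.16 ± 0.09). Cox8b, the muscle form, gave 0.258% of that pair in ischemia/reperfusion and 0.269% in sham, and Cox6b2, the testis form, 0.484% of its pair in ischemia/reperfusion and 0.438% in sham.

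**Figure D3:**
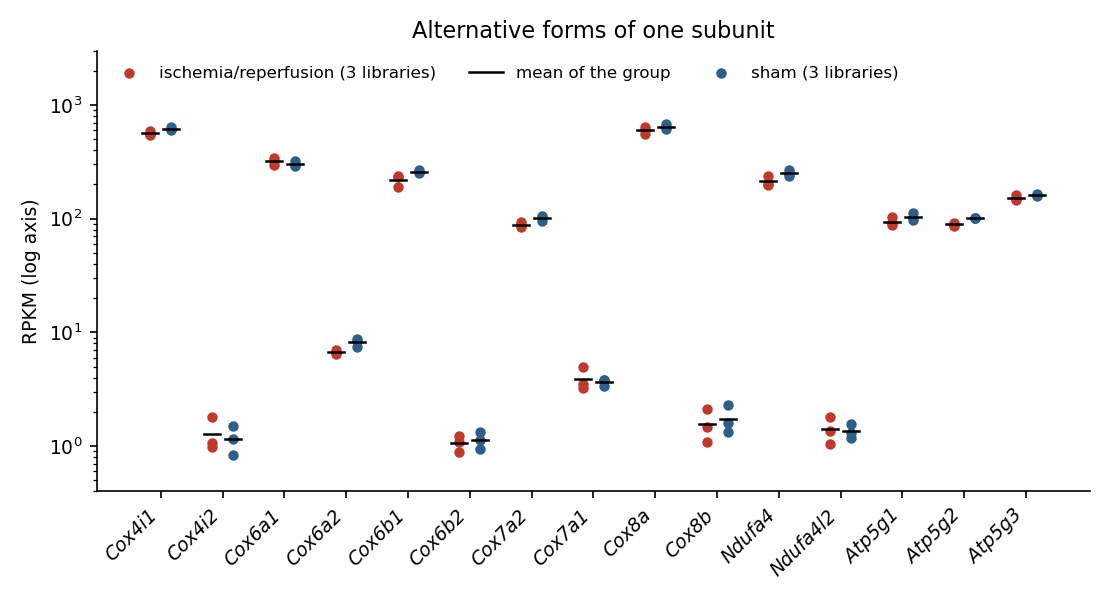
RPKM (log axis) of genes that encode alternative forms of the same subunit, 1 point per library, ischemia/reperfusion left of sham, with bars at the group means. The general forms lie at 84.0 to 677.5 RPKM and the tissue forms of complex IV at 0.829 to 8.80 RPKM, while the 3 Atp5g genes are of like level.

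Complex V, ATP synthase, had 15 genes, all below 0, with a median log2 fold change of -0.22. At an unadjusted p under 0.05, 7 were lower, where 8.71% of gene-symbol rows were. With the row length trend removed 0 were, against 5.34% of gene-symbol rows. Atp5k (chr5:108433253-108434378, minus strand, mm10), the small membrane subunit e that takes part in the dimerisation of the enzyme, had 209, 248 and 218 RPKM in ischemia/reperfusion, against 259, 279 and 269 RPKM in sham (-0.31 ± 0.10), with no overlap and an edgeR adjusted p of 0.211. Atp5c1, the central stalk that turns in the catalytic head, had 67.3, 70.0 and 65.5 RPKM in ischemia/reperfusion, against 76.7, 83.8 and 73.2 RPKM in sham (-0.26 ± 0.10), again with no overlap. The catalytic head itself, formed by Atp5b and Atp5a1, had 526, 571 and 477 RPKM in ischemia/reperfusion, against 585, 609 and 544 RPKM in sham for Atp5b (-0.20 ± 0.10). Atp5a1 had 317, 337 and 284 RPKM in ischemia/reperfusion, against 352, 373 and 323 RPKM in sham (-0.22 ± 0.10). Both overlapped, since sham replicate 3 lay within the ischemia/reperfusion range. Atp5d, the delta subunit of the stalk, was nearest to 0, with 113, 121 and 136 RPKM in ischemia/reperfusion, against 117, 112 and 129 RPKM in sham (-0.01 ± 0.10).

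The ring subunit c of ATP synthase is encoded by 3 genes that give the same mature protein. Atp5g3 gave 45.6% of their RPKM in ischemia/reperfusion and 44.0% in sham, and Atp5g1 28.0% in ischemia/reperfusion and 28.3% in sham, with overlapping groups. Atp5g2 gave 26.5% in ischemia/reperfusion and 27.7% in sham, and its highest ischemia/reperfusion share, 27.29%, was just below its lowest sham share, 27.30%. Atp5g2 had 88.9, 86.7 and 91.3 RPKM in ischemia/reperfusion, against 102, 102 and 102 RPKM in sham (-0.25 ± 0.09), with no overlap, beside -0.19 ± 0.10 for Atp5g1 and -0.13 ± 0.09 for Atp5g3, both with overlapping groups.

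Per length, Cox8a, Cox4i1 and Atp5b stood highest, with means over the 6 libraries of 620.9, 590.6 and 552.1 RPKM, and their ranges overlapped one another. Each library of Atp5b was above each library of the next gene, Atp5a1, with a mean of 331.0 RPKM. Cox6a1, Cox5b and Cox7c followed at 311.3, 308.5 and 307.7 RPKM, with ranges that overlapped Atp5a1. The assembly factors had a median of 11.1 RPKM, with Cox7a2l far above the others at 119.5 RPKM. Median levels by complex were 79.2 RPKM for complex I, 66.5 for complex II, 99.1 for complex III, 103.7 for complex IV and 135.8 for complex V.

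Assembly factors build the complexes and are not part of the finished enzymes. Cox7a2l differs in being described as a factor of supercomplexes of complexes III and IV. Whether it has that role in these mice was not measured. The 11 genes had a median log2 fold change of -0.13, all below 0. Of them 2, or 18.2%, had an unadjusted p under 0.05, where 8.71% of gene-symbol rows were lower. With the row length trend removed 0 did, against 5.34% of gene-symbol rows. Cox7a2l had 110.0, 115 and 109 RPKM in ischemia/reperfusion, against 131, 135 and 117 RPKM in sham (-0.25 ± 0.10), and Sdhaf1, which helps insert the iron-sulfur clusters of complex II, 20.02, 17.5 and 16.3 RPKM in ischemia/reperfusion, against 21.3, 20.1 and 21.8 RPKM in sham (-0.29 ± 0.12), both with no overlap. Ndufaf3, needed early in complex I assembly, had 19.4, 21.6 and 21.3 RPKM in ischemia/reperfusion, against 22.2, 23.2 and 23.4 RPKM in sham (-0.20 ± 0.11). Among the other assembly factors of complex I, Ndufaf1 had -0.21 ± 0.12, with no overlap, and nearer to 0 were Ndufaf4 (-0.13 ± 0.12), Ndufaf7 (-0.09 ± 0.11) and Ndufaf2 (-0.05 ± 0.16), each with overlapping groups. With the row length and abundance trends removed, the assembly factors' median of -0.09 was about that of complex I, -0.08, and the difference between the sets was not tested.

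**Figure D4:**
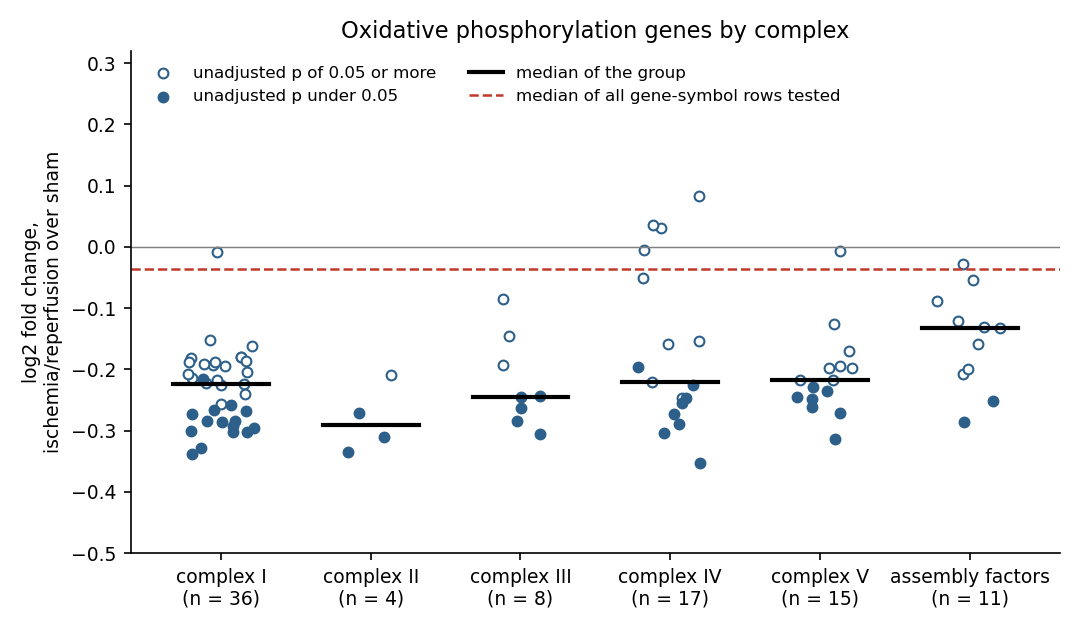
Log2 fold change of ischemia/reperfusion over sham for each oxidative phosphorylation gene, by complex, with a bar at each set's median and a dashed line at the median of all gene-symbol rows tested, -0.04. Filled points have an unadjusted p under 0.05 in edgeR, none passed adjustment, and the points above 0 are in complex IV.

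Genes that serve the same organelle were read from lists chosen by function. In the mitochondrial ribosome's large subunit, which translates the mitochondrially encoded partners of these proteins, 46 of 47 genes lay below 0, with a median log2 fold change of -0.17 and 11 at an unadjusted p under 0.05, where 8.71% of gene-symbol rows were lower. Mrpl11, 1 of its proteins, had 29.6, 33.8 and 29.8 CPM in ischemia/reperfusion, against 36.2, 41.4 and 38.1 CPM in sham. All 13 genes of the tricarboxylic acid cycle were below 0, with a median of -0.16, and 2 of them, Sucla2 (-0.26), which makes succinate from succinyl-CoA, and Idh3a (-0.20), of isocitrate dehydrogenase, had an unadjusted p under 0.05. Assembly and copper delivery factors of complex IV had a median of -0.10 over 21 genes, with 17 below 0 and 0 at that p in either direction, led by Surf1 (-0.25) and Coa3 (-0.22). The further assembly factors of complex I had a median of -0.12 over 7 genes, and those of complexes III and V -0.16 over 8. With the length and abundance trends removed, the medians were -0.10 for the ribosome, -0.05 for the cycle, -0.02 for complex IV assembly, -0.09 for the further complex I factors and -0.02 for those of complexes III and V. No gene of these lists passed the adjusted p in edgeR.

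Regulators of mitochondrial biogenesis had values on the other side of 0. Of 12 such genes, 9 had a log2 fold change above 0, with a median of 0.08, and 2 had an unadjusted p under 0.05, where 6.39% of gene-symbol rows were higher. Ppargc1b, a coactivator of respiratory genes, had 9.18, 9.89 and 13.1 CPM in ischemia/reperfusion, against 8.65, 6.77 and 8.12 CPM in sham (0.39 ± 0.16, SE). Yy1, a factor that binds respiratory gene promoters, had 32.9, 26.4 and 27.7 CPM in ischemia/reperfusion, against 23.7, 22.1 and 24.6 CPM in sham (0.25 ± 0.11, SE). Nrf1 had 0.16 ± 0.13, Ppargc1a -0.01 ± 0.12 and Tfam, which packs and transcribes mitochondrial DNA, -0.17 ± 0.12. With the length and abundance trends removed the median was 0.11, and none of the 12 passed the adjusted p in edgeR.

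**Figure D5:**
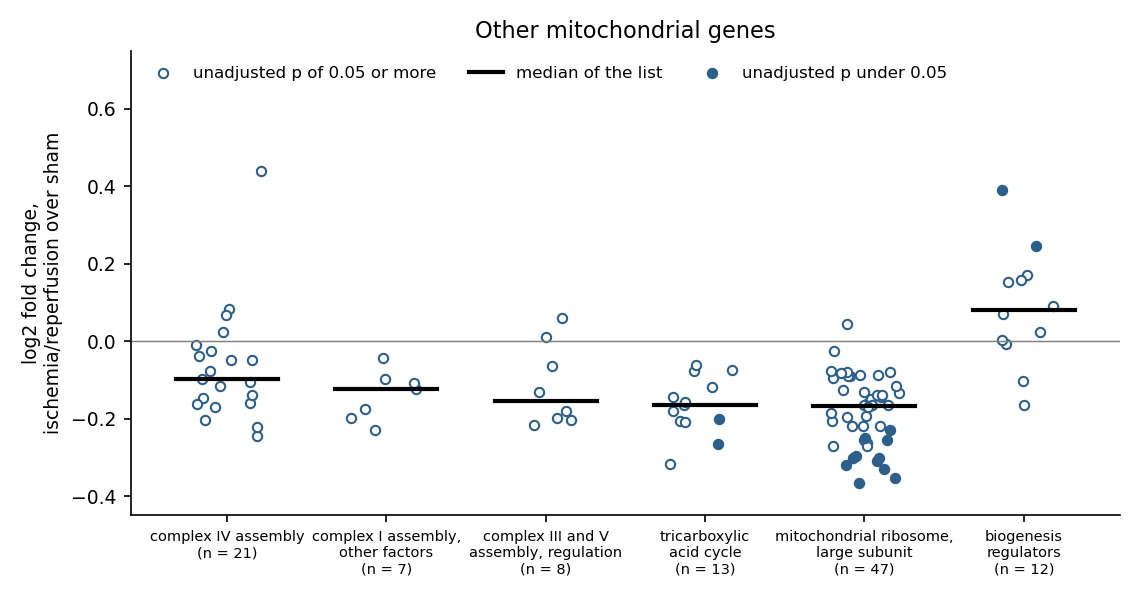
Log2 fold change of ischemia/reperfusion over sham for genes of 6 other mitochondrial lists, with a bar at each list's median and filled points at an unadjusted p under 0.05. The medians of the ribosome, cycle and assembly lists lie between -0.17 and -0.10, and that of the biogenesis regulators at 0.08.

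Markers of cell types were measured in the same fit. Astrocyte markers had a median log2 fold change of -0.24, with summed levels of 4843 to 5327 CPM in ischemia/reperfusion and 5543 to 5579 CPM in sham, and 7 of the 10 markers lay below 0. Neuron markers had a median of -0.07, microglia markers 0.16, endothelial markers 0.02, mural cell markers 0.09, oligodendrocyte markers 0.29 and choroid plexus markers -0.26. With the length and abundance trends removed, the median was -0.14 for astrocyte markers, 0.05 for neuron markers, which turned its sign, 0.20 for microglia, 0.07 for endothelial, 0.15 for mural cell, 0.44 for oligodendrocyte and -0.18 for choroid plexus markers. Before that removal, erythroid markers had 0.31, skeletal muscle markers -0.12 and neutrophil markers 1.07, the last at summed levels of 9.35 to 15.7 CPM in ischemia/reperfusion and 4.73 to 7.10 CPM in sham. The part of these cell types in the values of the oxidative phosphorylation genes was not tested.

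In the authors' deposited table, which compares mean RPKM, 68 of the 92 genes were lower and 1, Cox6a1, higher at a q-value under 0.05, where 15.7% of gene-symbol rows were lower and 19.5% higher. The authors' deposited table gives the 92 genes a median log2 fold change of -0.16, with 83 below 0. It lists Sdhc at -0.28 with a q-value of 4.56e-12 and Cox6a1 at 0.09 with a q-value of 0.00185, against edgeR adjusted p-values of 0.165 and 0.899 from the same libraries. The authors' test is not stated in the labels.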

How the data were processed

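The authors deposited, for 6 libraries of mouse brain RNA, whole-number counts per row and RPKM values. Recomputed from counts, row length and library total (per 1e6), RPKM matched the deposited value in 100% of cases (relative tolerance 0.001). The authors' comparison, also deposited, holds a log2 fold change, p-values and q-values. The build was mm10, per the submitters' processing notes. Aligner, counting tool, annotation and strand setting: not given in the sources used here. Oxidative phosphorylation genes have processed pseudogenes, and how reads were split among copies is unknown; 13 of the 92 rows overlap another gene row (Atp5j with Gabpa, for example).

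Counts were fitted with edgeR 4.0.16 (R 4.3.3): TMM factors, filterByExpr defaults, robust quasi-likelihood F test, two-sided, adjusted over 40170 rows, threshold 0.05, SE as size over the root of F. Alternatives were DESeq2 1.42.0, limma-voom (limma 3.58.1), RLE and upper-quartile factors, other filters, gene rows alone, no robust estimation, the replicate number as a block and leaving out each library. Library totals alone and removal of length and abundance trends were chosen after seeing the data. On simulated counts of this comparison (39446 rows, 200 changed), edgeR recovered 72% of 2-fold and 98% of 4-fold changes, with 12.4% of its calls false, DESeq2 83%, 99% and 22.9%, and limma-voom 68%, 98% and 13.5%. Differences as small as those of these genes were not simulated.

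Genes named were, per complex, the 3 with the smallest p and the most abundant, core and paired subunits (1 item is not reported here), up to 10 in each direction at an unadjusted p under 0.05, up to 3 per other list, and those next to the count minimum; Ndufab1, Uqcrc1, Uqcrq, Atp5d, Ndufb4, Cox5b, Ndufaf1, Ndufaf4, Ndufaf7, Ndufaf2, Nrf1 and Ppargc1a were added after their values were seen. Members and lists were chosen with earlier results of these data known. Counts of replicate libraries differed beyond sampling noise, and none were merged. Promoters came from RefSeq (GRCm38.p6), matched by gene ID.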

Additional observations from a re-analysis of the deposited data

How the results depend on the processing

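No gene was called in any of the settings run. Of 825 log2 fold changes of 46 named genes under 18 alternatives, 807 kept their direction and 18, of 9 genes, turned. Ndufa4l2 turned to 0.038 with gene rows only, 0.036 with upper-quartile factors, 0.028 with a mean of at least 1 CPM, 0.051 without TMM factors and 0.096 with the length trend removed. With the length and abundance trends removed, Atp5g3 turned to 0.053, Cox4i1 to 0.021, Cox8a to 0.064 and Ndufb9 to 0.0023. Leaving out each library gave ranges across 0 for Ndufa4l2 (-0.22 to 0.16), Cox4i2 (-0.24 to 0.29), Cox6a1 (-0.022 to 0.085), Cox7a1 (-0.17 to 0.14) and Cox8b (-0.50 to 0.017).

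The 40 genes lower at an unadjusted p under 0.05 became 25 without TMM factors, against 4.51% of gene-symbol rows, and 21 with upper-quartile factors, against 4.88%. They became 6 with the length trend removed, against 5.34%. With both trends removed they became 2, against 4.72%, with 1 higher, against 6.64%. Leaving out each library gave 15 to 60, against 4.17% to 12.2% of gene-symbol rows, and a median of -0.28 to -0.19. Genes without overlap then numbered 45 to 68. Removing values cannot create an overlap, so this count could not fall below the 43 of all libraries and tests nothing. With the length trend removed, medians were -0.12 over all genes and -0.12, -0.20, -0.14, -0.10 and -0.13 for complexes I to V. With both trends removed they were -0.080 over all genes, -0.076, -0.15, -0.087, -0.051 and -0.050 for complexes I to V, and -0.087 for assembly factors. Leaving out each library gave -0.31 to -0.18, -0.33 to -0.23, -0.28 to -0.20, -0.27 to -0.17 and -0.28 to -0.20 for complexes I to V, and -0.19 to -0.12 for assembly factors, which had -0.074 without TMM factors. The cause of these shifts was not tested. Same-numbered libraries did not consistently deviate together, with r of -0.11, 0.05 and 0.21 for replicates 1 to 3. Only for replicate 3 was the same-numbered library the best match. With the replicate block 48 genes were lower at that p, against 8.62% of gene-symbol rows, and 0 were called. The median SE of a gene's log2 fold change was 0.10, so 3 libraries a group leave differences of this size near the limit.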

Other observations

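Some rows of the table are cDNA clones that lie inside the genes described here, on the same strand. There were 36 such rows in 24 of the 92 genes. The 13 rows with over 20% of the RPKM of their gene had a median log2 fold change of -0.24, all of them below 0. Their median level was 106.9% of the RPKM of the gene. They may count the same reads as the gene, so their like values are no separate evidence. The 23 rows with at most 20% of the RPKM of their gene had a median of 0.17, and 15 of them were above 0. The 14 genes that hold them had a median of -0.24. The rows are not independent of one another, since 7 of the 23 lie in Ndufs4 alone. In 22 of these 23 rows the value was above that of the gene. An unadjusted p under 0.05 in edgeR was reached by 2 of the 23 above 0 and 1 below it. At that p, 6.9% of all rows were lower and 6.39% of gene-symbol rows higher, and the share over clone rows alone was not counted. Over all clone rows tested the median was 0.09, so most clone rows were above 0 as well. What these low rows count was not tested.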
